A study of Glycine max with 30 samples.

Results

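Regions of soybean chromatin that were detected as open at a single sampling of the day, and there in more than 1 replicate, were collected from an ATAC-seq time course. ATAC-seq (assay for transposase-accessible chromatin with sequencing) uses a transposase to cut DNA that is not covered by nucleosomes, and places where cut fragments pile up are called as accessible chromatin regions (ACRs). The leaves came from wild-type Ws82 (Williams 82), as the first tri-foliate leaf of plants raised in short days of 8 h light and 16 h dark and then kept in constant light, where rhythms are free-running. They were sampled every 4 h at ZT0, ZT4, ZT8, ZT12, ZT16 and ZT20 (the names in the labels; the study counts them a cycle later). Each time point had 3 libraries, L, M and R, which the labels describe as independent biological replicates. All 18 libraries share cultivar, tissue and light regime, and time is the only labelled difference between the groups. The tissue label could not be checked with marker genes, because the regions were not matched to genes here.

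In a plant clock, transcription factors of the LHY and CCA1 family act around dawn, PRR proteins follow through the day, and the evening complex with LUX acts around dusk. Such factors bind short DNA elements, which tend to lie in ACRs near genes. Listing ACRs at each sampling asks which of them were detected at 1 time of day only.

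A union region was a stretch covered by at least 1 of the 6 merged lists, in which the authors had called ACRs on the merged reads of each time point and kept those also found in the replicate calls. The merged lists were thus already filtered on library support, and all 13210 union regions in 1 merged list had a peak in at least 1 library of that time point. A single-time region with replicate support was a union region in exactly 1 merged list, with a peak in 2 or 3 of the 3 libraries of that time point and in 0 of the other 15 libraries. There were 932 such regions, 2.59% of the 35922 union regions and 7.06% of the 13210 union regions in 1 merged list. Of the 932, 871 had a peak in 2 libraries and 61 (0.170% of all union regions) in 3. The regions were chosen by the peak calls of these same libraries, so these counts and the strength of the peaks are a description and were not tested. Among union regions, the condition of a single merged list took nothing away, as every one with peaks in 2 or 3 libraries of a time point and in no other library was in the merged list of that time point alone.

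The 18 library lists held 7668 to 21804 peaks, and no pair of lists was identical. The background coverage, read from the peaks, lay between 0.39 and 0.784 fragments per base. The weakest peak of a list had 4 or 5 fragments at its summit and the median peak 7 to 11. The absence of a peak in the other 15 libraries was therefore a lack of detection at this depth and does not show closed chromatin.

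The regions were spread unevenly over the day. ZT12 held 279 (0.777% of union regions), ZT8 held 199 (0.554%) and ZT4 held 174 (0.484%). ZT16 held 136 (0.379%), ZT0 held 79 (0.220%) and ZT20 held 65 (0.181%). The number rose from ZT0 to ZT12 and fell from there to ZT20. The merged lists were also longest at ZT12 (21022 regions) and shortest at ZT20 (15405) and ZT0 (13675). Set against the single-time regions of the same list, the share with replicate support lay between 4.63% at ZT20 and 8.67% at ZT8.

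Support from all 3 libraries was rare, and ZT0 had the most. Regions with a peak in all 3 libraries numbered 19 at ZT0 (0.0529% of union regions), 16 at ZT12 (0.0445%) and 10 at ZT4 (0.0278%). There were 9 at ZT8 (0.0251%), 5 at ZT16 (0.0139%) and 2 at ZT20 (0.00557%). Thus 24.1% of the ZT0 regions were found in 3 of 3 libraries, against 3.08 to 5.75% at the other time points. ZT0 regions were also the widest, with a median of 446 bp against 304 to 374 bp elsewhere.

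**Figure D1:**
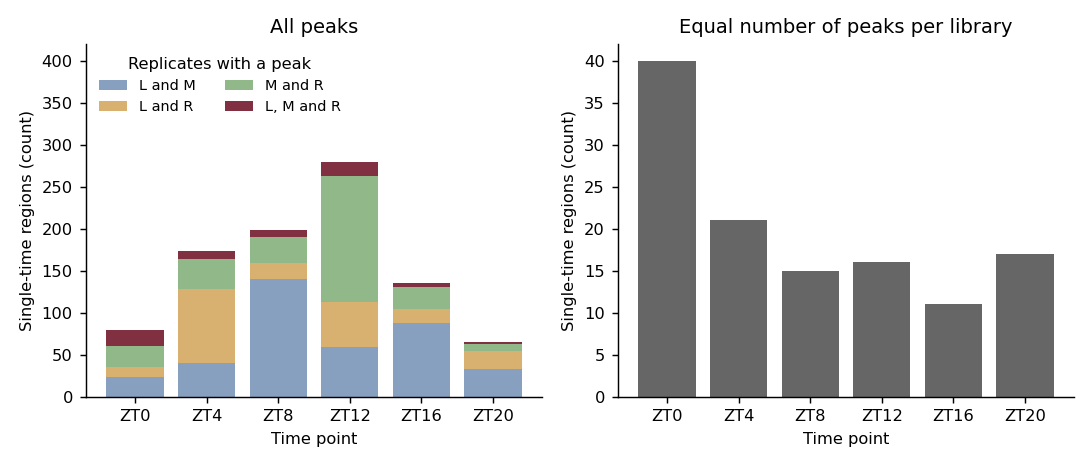
Left, the number of single-time regions with replicate support at each time point, with bars split by the replicates that had a peak. Right, the number when every library was given its 7668 peaks of highest −log10 q; the y axes differ. With all peaks ZT12 was highest (279), and with an equal number of peaks ZT0 was highest (40).

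This order depended on how many peaks each library contributed. When every library was limited to its 7668 peaks of highest −log10 q, the length of the shortest list, 120 regions met the rule. Only 75 of them were among the 932, and the others had a peak at another time point that the limit removed. From ZT0 to ZT20 the 120 numbered 40, 21, 15, 16, 11 and 17, and the 75 numbered 31, 15, 9, 5, 7 and 8. ZT0 held 33.3% of the 120, in place of 8.48% of the 932, and ZT12 held 13.3% in place of 29.9%. This limit kept 100% of the list of ZT0 replicate L and 35.2% of that of ZT12 replicate M. With peaks of a −log10 q of at least 5, 113 regions met the rule (66 of them among the 932), and ZT16 was highest with 31. In the upper 50% of each list 71 met it (43 of them among the 932), with 16 at ZT4 as the highest number. None of these 3 rules on peak strength gave the order of time points found with all peaks.

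The libraries behind the regions were unequal as well. At ZT8, 140 of 199 regions rested on L and M, whereas 19 rested on L and R and 31 on M and R, and replicate R had the shortest ZT8 list with 8143 peaks. At ZT12, 150 of 279 rested on M and R, 59 on L and M and 54 on L and R, and replicate L had the shortest ZT12 list with 10813 peaks. At ZT4, 88 of 174 rested on L and R and 36 to 40 on the other pairs, with M the shortest list (11432 peaks). In each of these time points the most frequent pair was the pair of the longest lists. At ZT16, 88 of 136 rested on L and M, which again had the longest lists. ZT20 had 33 regions from L and M, 21 from L and R and 9 from M and R. At ZT0 the pairs were closest, with 25 regions from M and R, 24 from L and M and 11 from L and R, beside the 19 from all 3.

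**Figure D2:**
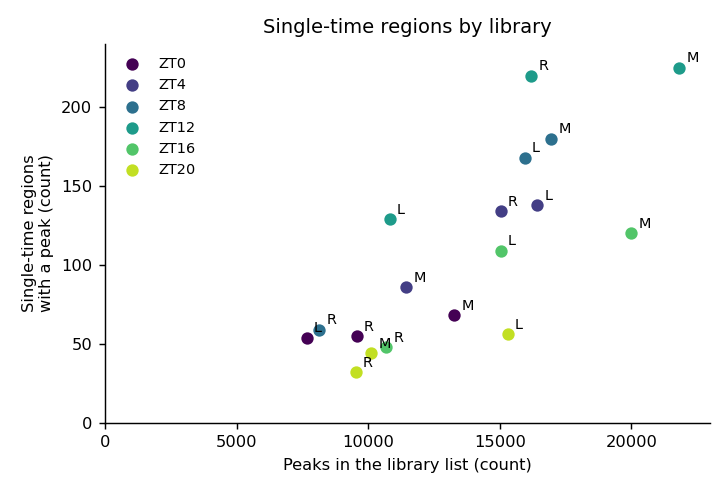
Each point is 1 library, with the peaks in its list on the x axis and the single-time regions with replicate support that it had a peak in on the y axis; letters are replicates and colours time points. ZT12 replicates M and R had peaks in 225 and 220 regions, and ZT20 replicate R in 32.

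A library with a long list did not have many single-time regions at every time of day. ZT20 replicate L, with 15293 peaks, had a peak in 56 of these regions, and ZT16 replicate L, with 15031 peaks, in 109. ZT4 replicate R, with 15028 peaks, had a peak in 134, and ZT8 replicate L, with 15942, in 168. ZT12 replicate R, with 16198 peaks, had a peak in 220. These 5 lists differ little in length, but a library counts only where another list of its time point has a peak too. The other ZT20 lists held 10101 and 9518 peaks, and the other ZT12 lists 21804 and 10813. The part of these other lists was not tested. ZT12 replicate R also had the highest background coverage, 0.784 fragments per base, whose part in its number was not tested.

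Peaks of the single-time regions were weak ones. Over the 1925 peaks (the strongest of each library in each region), the median fold over background was 4.61 and the median summit had 7 fragments, with 5 to 11 fragments between the 10th and the 90th percentile. The median peak stood at 74.0% of its list when counted from the strongest, and 14.4% of the peaks were in the upper 50% of their list. Regions found in all 6 merged lists, 6538 in number, had a median fold of 7.70, 13 fragments at the median summit and 79.0% of their peaks in the upper 50%. Single-time regions with a peak in only 1 library of the time point and in 0 of the other 15, 8793 in number and just outside the rule, had a median fold of 4.50, 6 fragments and 9.89% of their peaks in the upper 50%.

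**Figure D3:**
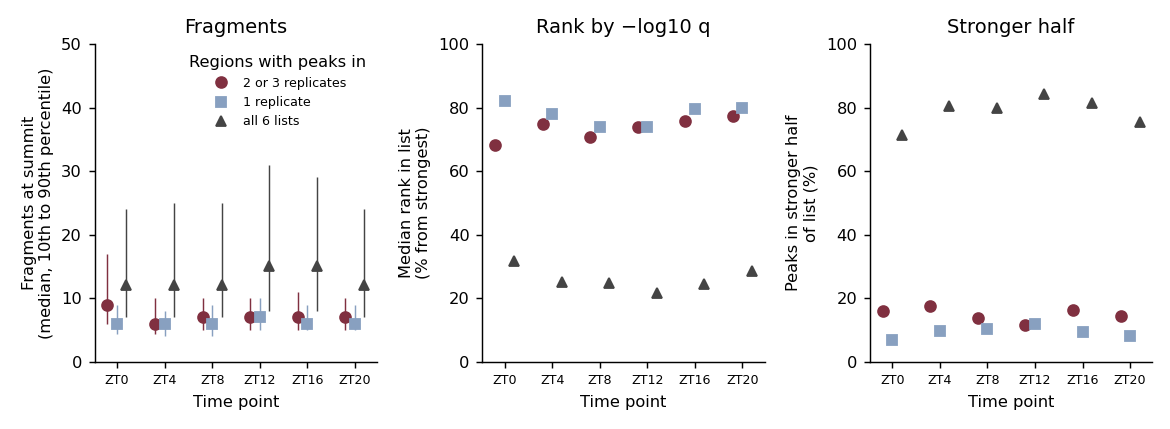
For each time point, fragments at the summit (points are medians, lines run from the 10th to the 90th percentile), the median rank of the peaks in their list, and the share of peaks in the stronger 50% of their list, for regions with peaks in 2 or 3 replicates, in 1 replicate, or listed at all 6 time points. Peaks of single-time regions had medians of 6 to 9 fragments, and those of regions in all 6 lists 12 to 15.

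By their medians, peaks at ZT0 were the strongest, with 9 fragments and a rank of 68.1%, against 6 or 7 fragments and ranks from 70.6 to 77.3% at the other time points. The share of peaks in the upper 50% of their list was higher at ZT4 (17.6%) and ZT16 (16.2%) than at ZT0 (15.8%), and 0 peaks of ZT0 were in the upper 10%, against 6 of ZT4 and 2 of ZT16. Regions with 3 of 3 libraries had a median fold of 4.80 and a median width of 478 bp. Those with 2 of 3 had a median fold of 4.59 and a median width of 332 bp. All 932 regions were between 147 and 1322 bp wide, with a median of 338 bp, whereas 1-library regions had a median of 248 bp and regions in all 6 lists one of 563 bp. A wider region is more easily touched by a second peak, so width was not tested.

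The edge of the rule ran through a large number of similar regions. Just inside it were the 871 regions with peaks in 2 libraries and in no other library. Just outside were the 8793 with a peak in 1 library, and 398 with peaks in 2 libraries of their time point and in 1 of the other 15. A further 40 had peaks in 3 libraries of their time point and in 1 other.

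For these 438 regions that missed the rule by 1 peak, the odd library tended to be a neighbour in time. It belonged to a time point 4 h away in 230 (52.5%), 8 h away in 144 (32.9%) and 12 h away in 64 (14.6%). There are 6 libraries at 4 h, 6 at 8 h and 3 at 12 h, so the number per library was 38.3, 24.0 and 21.3. The libraries at 4 h held 41.5% of the peaks of the other 15 libraries, those at 8 h 39.3% and those at 12 h 19.2%. The neighbours were thus ahead of their share of peaks, as a description without a test. Of the single-time regions with a peak in 1 library of their time point and in 1 other, 46.2% had the other at 4 h. For them no share of peaks was worked out. Among the 438, most of the 230 at 4 h came from ZT8, with 52 of 85 at 4 h, ZT12, with 74 of 129, and ZT16, with 49 of 84. ZT4 had 34 of 78 at 4 h and 32 at 8 h. ZT0 had 11 of 35 at 4 h, 10 at 8 h and 14 at 12 h, and ZT20 had 10 of 27 at 4 h and 12 at 8 h. These counts by time point were not set against the share of peaks.

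For each time point, the 2 regions with the best support in 3 of 3 libraries are described next, with coordinates of the Wm82.a2.v1 assembly. By the rule, none of them had a peak in any library of another time point. At ZT0 the first lay on chromosome 1 from 2712504 to 2712944, with 21 fragments at the summit in L, 24 in M and 21 in R and folds of 4.97, 5.38 and 4.83. Its summits lay within 64 bp of each other and its peaks stood at 28.8 to 42.2% of their lists. The nearest peak of another time point was 192 bp away. The second lay on chromosome 1 from 49958454 to 49959411, with 16 fragments in L, 25 in M and 24 in R. It was 958 bp wide and stood 2129 bp from the nearest peak of another time point.

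At ZT4 the first region, on chromosome 2 from 8830635 to 8830792, was narrow (158 bp) and had 8 fragments in L, 7 in M and 11 in R. Its summits were at most 45 bp apart, and no peak of another time point lay within 10166 bp. The second, on chromosome 10 from 45293144 to 45293391, had 14 fragments in L and 19 in both M and R, with folds of 4.28, 6.26 and 5.37. Both ZT4 regions had their peaks within the upper 61.8% of each list.

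At ZT8 the first region lay on chromosome 18 from 6271000 to 6271424. It had 18 fragments in L, 20 in M and 12 in R, and its largest summit spacing was 206 bp because R had its summit apart from L and M. The second lay on chromosome 8 from 45149807 to 45150469, with 12 fragments in L, 15 in M and 12 in R. Replicate R, the shortest ZT8 list, held a peak in both.

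At ZT12 the first region lay on chromosome 7 from 2904801 to 2905417, with 11 fragments in L, 13 in M and 13 in R. The second lay on chromosome 8 from 37795158 to 37795574, with 8 fragments in L and 7 in both M and R. All of these values were below the 16 fragments that were lowest in the ZT0 regions, but fold over background did not give that order. The first ZT12 region had folds of 5.80, 5.11 and 5.56, against 4.97, 5.38 and 4.83 in the first ZT0 region.

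At ZT16 the first region, on chromosome 14 from 47557596 to 47558917, was the widest of all 932 at 1322 bp. It had 18 fragments in L, 21 in M and 15 in R and folds of 5.5, 6.50 and 5.88. The second, on chromosome 1 from 56219324 to 56219755, had 11 fragments in L, 9 in M and 7 in R, and its R peak stood at 90.1% of its list.

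At ZT20 there were only 2 regions with full support. The first lay on chromosome 14 from 44060787 to 44061233, with 8 fragments in L, 6 in M and 7 in R. The second lay on chromosome 13 from 27713356 to 27713739, with 5 fragments in L, 10 in M and 6 in R. The 5 fragments in L were at the level of the weakest peaks of the lists (4 or 5 fragments), whereas the 10 in M equalled the median of that list. This region was the only one of the 12 named regions outside the outer 25% of its chromosome.

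**Figure D4:**
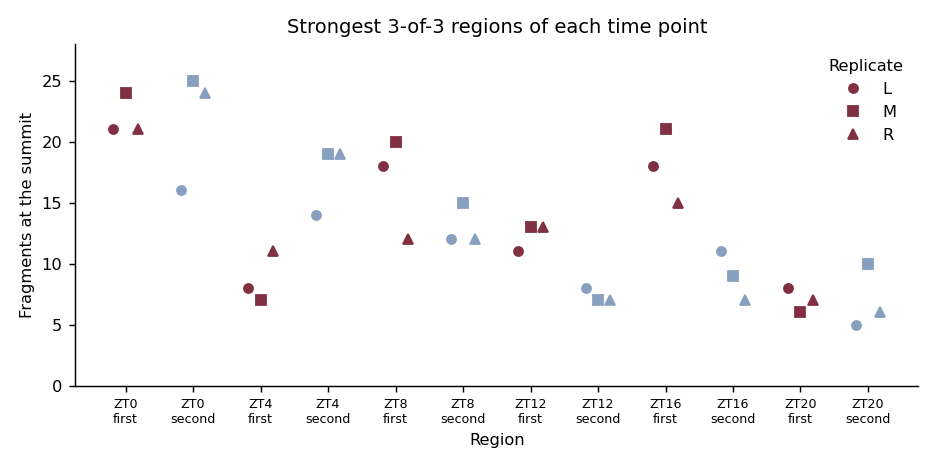
Fragments at the summit in replicates L (circles), M (squares) and R (triangles) for the 2 best supported single-time regions of each time point. The ZT0 regions had 16 to 25 fragments and the ZT20 regions 5 to 10.

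A few regions with 2 of 3 libraries held very strong peaks and were missing altogether from the third library. They were chosen after their values were seen, as the 4 regions whose peaks were all in the upper 10% of their lists. The most extreme lay on chromosome 1 from 32987496 to 32987690 (195 bp) at ZT16, with a fold of 55.7 in L and 58.3 in M and no peak in R. Its summits in L and M were at adjacent positions, 32987632 and 32987631. The nearest other union region was 97697 bp away and the nearest peak of another time point 35695 bp. The region on chromosome 2 from 11900646 to 11900792 had folds of 23.1 in M and 23.0 in R at ZT4 and no peak in L. On chromosome 15 from 24914195 to 24914450, M had a fold of 27.2 and R one of 21.5 at ZT4, and L again had none. On chromosome 6 from 22788914 to 22789094, L had 30 fragments and R 32 at ZT4, and M had no peak. In all 4 regions the library without a peak went against 2 replicates with some of the strongest peaks of their lists.

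Few regions met the rule in every setting. Of the 932, 75 (8.05%) still had peaks in 2 or 3 libraries of their time point at 7668 peaks for each list, 66 (7.08%) with a −log10 q of 5 or more and 43 (4.61%) in the upper 50% of each list. Where peaks had to cover 50% of a region, 611 (65.6%) did. The regions that met the rule in all 4 of these settings numbered 25, of which 9 were at ZT4, 7 at ZT16, 3 each at ZT0, ZT8 and ZT12 and 0 at ZT20. Among the 25, 8 had peaks in 3 of 3 libraries when all peaks were used, but some of these kept only 2 in a stricter setting. The 8 included both named regions of ZT0 and of ZT4 and the first ones of ZT8 and ZT16. The 4 regions with very strong peaks in 2 libraries were among the 25 as well. These 4 and the named regions were chosen by the rank of their peaks, and 3 of the settings ask for strong peaks. Their place among the 25 is therefore no separate support.

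The rule asked only for overlap, so the place of the summits was free to differ, although the summits are those of peaks that the rule selected. For pairs of replicate libraries with a peak in the same single-time region, the median distance between summits was 57 to 85 bp over the 6 time points, against 34 to 41 bp in regions listed at all 6 time points. The difference was 29.4 ± 11.4 bp (SD, n = 6 time points) and was in the same direction at 6 of 6 time points (exact sign-flip permutation p = 0.03125, the smallest possible; Benjamini-Hochberg adjusted p = 0.0781 over 5 tests). It therefore did not pass the adjusted threshold of 0.05. Against the 792 regions in all 6 lists that were no wider than the median single-time region, the difference was 60.9 bp. The single-time regions kept all their widths there, and narrow regions leave less room between summits. That comparison did not match widths and cannot tell what part width has in the difference. Peak strength was not matched either. The median summit had 7 fragments in single-time regions and 13 in regions of all 6 lists. The part of strength in the spacing was not tested. The peaks of 47 of the 1054 pairs (4.46%) did not overlap each other, against 0.700% of the pairs in regions of all 6 lists. In 37 of the 932 regions (3.97%) no pair of replicate peaks overlapped, although the region as a whole was counted as supported.

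The comparison with 1-library regions of the same time point asked what replicate support goes with, other than the calls. Single-time regions with replicate support lay nearer to another union region, with median distances from ZT0 to ZT20 of 2249, 4832, 3796, 5366, 2716 and 2575 bp. For 1-library regions these were 3983, 5418, 4503, 6166, 4405 and 4230 bp. The medians were lower at 6 of 6 time points, with a difference of −0.143 ± 0.0906 on the log10 scale (SD, n = 6; exact sign-flip permutation p = 0.03125, adjusted p = 0.0781), which did not pass the adjusted threshold of 0.05. The unadjusted exact p was 0.125 without ZT4 replicate L, with a difference of −0.112, and 0.0625 without ZT12 replicate R, with one of −0.127. Where both kinds of region had to hold a peak with a −log10 q of 5 or more, the difference was −0.0590 (exact p = 0.1562). Within 1 kb of another union region lay 204 of the 932 (21.9%), against 18.8% of 1-library regions and 20.6% of all union regions. Against regions in all 6 lists the log10 distance differed by −0.160 ± 0.156 (SD, n = 6; exact p = 0.09375, adjusted p = 0.117). Those regions gave 1 median distance, shared by the 6 time points, so that comparison was not paired.

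A peak of another time point lay near some of the single-time regions. For 129 of the 932 (13.8%) the nearest peak in the other 15 libraries lay within 500 bp, and for 251 (26.9%) within 1000 bp. The shares for 1-library regions were 13.9% and 24.5%. These shares are a description and were not tested.

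Most of the regions lay toward chromosome ends. The outer 25% of chromosomes, counted from each end, held 665 of the 932 (71.4%), against 73.3% of all union regions. From ZT0 to ZT20 the shares were 70.9, 70.1, 71.4, 71.0, 75 and 69.2%. The difference from 1-library regions was 2.15 ± 4.38 percentage points (SD, n = 6; exact sign-flip permutation p = 0.2812, adjusted p = 0.281), lower at ZT0, ZT4 and ZT8 and higher at ZT12, ZT16 and ZT20. At ZT12 it was 71.0% against 63.0%, and this time point had the largest difference. Its sign turned among stronger peaks, with −3.24 percentage points where a −log10 q of 5 or more was required, and it was −0.00128 without ZT20 replicate M. Against regions in all 6 lists, 74.4% of which were in the outer part, the difference was −3.18 ± 1.98 percentage points (SD, n = 6; exact p = 0.0625, adjusted p = 0.104) and lower at 5 of 6 time points. The 74.4% was 1 value shared by the 6 time points, so that comparison was not paired.

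**Figure D5:**
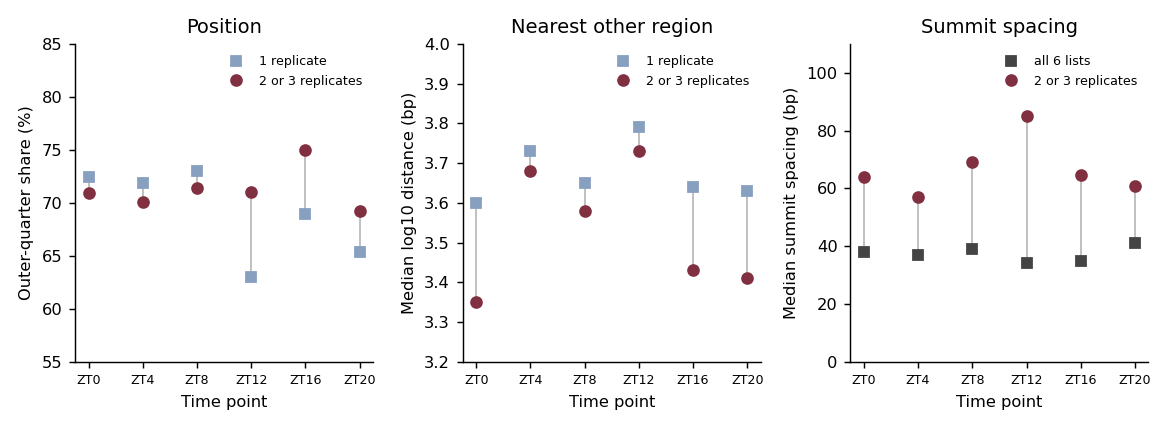
For each time point, the share of regions in the outer 25% of a chromosome, the median log10 distance to the nearest other union region, and the median distance between replicate summits, for single-time regions with replicate support (circles) and the regions they were compared with (squares); the first 2 y axes do not start at 0. Distances were lower and summit spacings higher at 6 of 6 time points, and the outer share was higher at 3 of 6.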

How the data were processed

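The time course gave 18 wild-type ATAC-seq libraries, and 12 other samples of wild type and of clock mutants are not used here. After trimming, the authors mapped read pairs by Bowtie2 onto assembly Wm82.a2.v1, keeping several alignments per pair, sampled the reads to a common depth and called peaks with MACS2 on whole fragments, in each library and on the merged reads of each time point, keeping peaks found by both. The deposited library lists give the position, the summit, the fold over background (a ratio), and the −log10 p and −log10 q of each peak as the authors' caller wrote them. The deposited merged lists give positions only and have no replicates. The −log10 q served to rank peaks within a list.

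The 6 merged lists were joined where regions overlapped or touched, and a library counted as supporting a region if any of its peaks shared 1 bp or more with the region. The whole number of fragments at a summit was recovered from fold and −log10 p where the latter was under 50 (tolerance 0.001). It was found for at least 99.955% of these peaks in each library. Of several peaks of a library in a region, the one with the highest −log10 q was used. Chromosome lengths were taken as the farthest peak end. Differences were tested by an exact two-sided sign-flip permutation over the 6 time points, whose smallest p is 0.03125, with Benjamini-Hochberg adjustment over 5 tests. The calling rule and the test were tested on simulated data. For each time point, the 2 regions with peaks in 3 of 3 libraries and the best worst rank were named. The regions, the comparisons and the alternatives were chosen with earlier results of these data known. No genome or annotation of this assembly was used, so regions are given by position, and the planned checks of sequence and genes were not run. The software was scipy 1.17.1, pandas 2.3.3, numpy 2.4.6 and matplotlib 3.10.9 under Python 3.11.15.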

Additional observations from a re-analysis of the deposited data

Results flagged for a closer look

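The library lists held further single-time signal that the merged lists left out, and it is given here because the comparisons above do not use it. When the 18 library lists themselves were joined, 1017 regions had peaks in 2 or 3 libraries of 1 time point and in 0 of the other 15. Of these, 102 (10%) overlapped no merged list. The count is a description and was not tested. From ZT0 to ZT20 they numbered 17, 11, 15, 36, 13 and 10, and 12 of the 102 had peaks in 3 of 3 libraries. Their 216 peaks had a median rank of 79.0% of their lists and the median region was 320 bp wide.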

How the results depend on the processing

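The number of single-time regions with replicate support, 932, fell to 120 at 7668 peaks for each list, 113 at a −log10 q of 5 or more and 71 among the upper 50% of peaks, settings with fewer peaks by construction. The number with 3 of 3 libraries, 61, was 14, 9 and 4 in these settings and 38 where peaks had to cover 50% of a region. Without 1 library, the totals were 763 to 915 and those with 3 libraries 43 to 63, although the time point that lost a library needed peaks in both others. Its own number then moved by over 1.5 times, to between 11 (ZT20 without L) and 166 (ZT12 without L), except without R at ZT8 (149 of 199 left) and at ZT16 (93 of 136 left). Requiring replicate peaks to overlap each other, added after seeing the data, left 895.

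The difference in outer share from 1-library regions, 2.15 percentage points, turned to −2.91 at a −log10 q of at least 5, −15.1 in the upper 50% and −3.24 where the strongest peak had to reach 5; it ranged from −0.00128 (without ZT20 replicate M) to 5.10 without 1 library, and was past no threshold. The log10 distance difference, −0.143, was −0.147 with an equal number of peaks (exact p = 0.4375), −0.144 at a −log10 q of at least 5 (exact p = 0.0625), −0.0486 in the upper 50% (exact p = 0.5), −0.148 at 50% cover (exact p = 0.0625) and −0.0590 for strongest peaks of at least 5; without 1 library it ranged from −0.198 to −0.112. The causes were not tested. Summit spacing differences ranged from 27.7 to 40.1 bp without 1 library, with the same exact p throughout. All sides of the threshold here refer to the unadjusted p. The tests were paired by time point, as the sign-flip was made on differences between kinds of region within each time point. No paired analysis was possible by replicate letter, because the letters do not link libraries in these tests. Depth limits all absences, as peaks rest on 4 fragments or more.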

Other observations

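Every chromosome held single-time regions with replicate support, from 33 on chromosomes 15 and 16 to 70 on chromosome 8. As a share of union regions, chromosome 3 had the most (3.6%, 56 regions) and chromosome 15 the fewest (2.02%, 33 regions), around 2.59% over all chromosomes. In 30 cases the next union region along the chromosome was also one of the 932, and in 8 of the 30 both were of the same time point. Of the 30 pairs, 14 were within 10 kb of each other, 6 of them of the same time point, and 5 were within 1 kb, 2 of them of the same time point. These are counts without a test.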
